A study of Mus musculus with 13 samples.

Results

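Serpins were measured as RNA in mouse mammary tumours and wild-type mammary glands. Every gene symbol of the count table made of Serpin, a clade letter from a to i, a number and an optional further letter was taken, with no other criterion, which gave 59 of 38279 symbols. Clade A held 24 of them, clade B 25, clade E 3, clade F 2, and clades C, D, G, H and I 1 each. Of the clade A genes 23 lie on chromosome 12 and 1 on chromosome X, and of the clade B genes 10 lie on chromosome 1 and 15 on chromosome 13, by RefSeq's names for GRCm38.p6. That annotation lists Serpina3h, whose symbol fits the pattern, as a transcribed pseudogene. After a filter on low counts 29 of the 59 were tested: 12 of clade A, 10 of clade B, 2 of clade E and 1 each of clades C, F, G, H and I.

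The series studies loss of Fbxw7, which encodes the substrate-binding part of a ubiquitin ligase, in the mouse mammary gland. The 6 tumours came from Cre-positive mice, in which mating at 12 weeks of age induced the excision of Fbxw7. These mice were 25, 32, 39, 19, 53 and 25 weeks old for tumours 1 to 6. The 4 whole glands, labelled WT, came from Cre-negative mice mated at the same age, of 20 weeks for glands 1 to 3 and 40 weeks for gland 4. The labels used here do not name the promoter that drives Cre, the strain, or whether the Cre-negative mice carry the alleles that Cre cuts. The other 3 samples of the series, of purified epithelium, were not analysed here. Genotype, tumour state, age and tissue make-up differ between the groups together and cannot be told apart.

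Most serpins are suicide inhibitors: a protease cuts the exposed reactive centre loop of the serpin, which then springs into the body of the protein and traps the protease in a covalent complex. Mice carry many more copies of clade A and clade B genes than humans, and the copies of a family differ most in this loop. Some serpins inhibit no protease, such as the collagen chaperone encoded by Serpinh1. In the mammary gland serpins are known for restraining plasminogen activation during tissue remodelling, and for maspin, the product of Serpinb5, which was described as lost in human breast cancer cells.

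The stretches of coding sequence for the reactive centre loop are shown for clade A copies whose levels are described further on. They were chosen because the copies compared were less alike there than over the rest of the coding sequence. They run 5′ to 3′ on the coding strand, from the hinge of the loop to the conserved bases after it, and come from GENCODE M21 transcripts of genes on chromosome 12. In the alpha-1-antitrypsin copies capitals mark bases that differ from Serpina1a, and in the alpha-1-antichymotrypsin copies bases that differ from Serpina3n.
Serpina1a: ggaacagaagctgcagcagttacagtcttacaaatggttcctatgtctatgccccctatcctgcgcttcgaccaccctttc
Serpina1b: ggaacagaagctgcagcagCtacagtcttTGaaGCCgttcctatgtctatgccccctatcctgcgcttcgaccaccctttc
Serpina1c: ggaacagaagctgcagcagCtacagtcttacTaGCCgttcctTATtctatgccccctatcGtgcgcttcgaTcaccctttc
Serpina3n: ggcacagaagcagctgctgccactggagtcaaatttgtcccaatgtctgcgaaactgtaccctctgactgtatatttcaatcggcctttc
Serpina3c: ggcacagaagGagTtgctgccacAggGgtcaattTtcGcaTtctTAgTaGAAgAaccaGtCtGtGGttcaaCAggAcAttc
Serpina3f: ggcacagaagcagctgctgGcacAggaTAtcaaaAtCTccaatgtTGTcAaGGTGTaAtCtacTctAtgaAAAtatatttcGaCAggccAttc
Serpina3g: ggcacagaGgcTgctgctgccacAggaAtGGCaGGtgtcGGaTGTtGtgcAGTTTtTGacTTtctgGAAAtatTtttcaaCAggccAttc
Serpina3i: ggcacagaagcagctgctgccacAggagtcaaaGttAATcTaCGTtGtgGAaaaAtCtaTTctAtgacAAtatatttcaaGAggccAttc
Serpina3m: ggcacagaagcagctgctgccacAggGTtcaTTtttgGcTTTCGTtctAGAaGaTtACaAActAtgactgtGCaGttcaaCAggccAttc

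Over the whole coding sequence the 5 copies Serpina1a to Serpina1e were 96.3% to 98.5% identical in pairs, and 6 Serpina3 genes (3c, 3f, 3i, 3k, 3m and 3n) were 72.6% to 91.1% identical. In the loop, with gaps counted as differences, Serpina1b, 1c, 1d and 1e matched Serpina1a at 85.2% to 92.6% of positions, against 97.2% to 99.2% in the rest of the coding sequence. Serpina3c, 3f, 3i, 3k and 3m matched Serpina3n at 64.4% to 75.6% of loop positions, against 77.2% to 86.6% in the rest. The loop was the less alike part in all 9 copies compared.

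**Figure D1:**
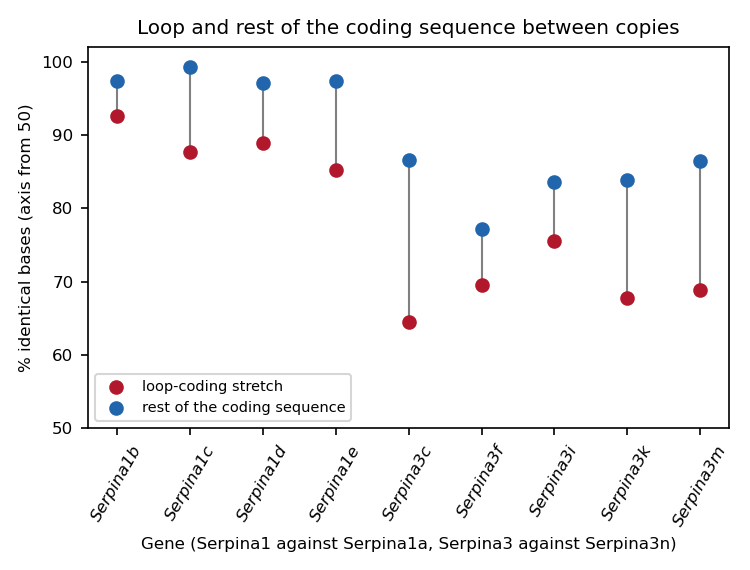
Percent of identical bases in the stretch coding for the reactive centre loop and in the rest of the coding sequence, for Serpina1 copies against Serpina1a and Serpina3 copies against Serpina3n (vertical axis from 50%). In each of the 9 copies that have both values the loop point lies below the other, between 64.4% and 92.6%.

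Shared sequence limits how far counts of single copies can be read. Serpina1c shared 82.2% of its 31-base words with transcripts of other genes, Serpina1a 65.2%, Serpina1d 64.7% and Serpina1b 44.7%. The share was 39.8% for Serpina3h, 28.4% for Serpina3g, 27.3% each for Serpina3f and Serpina3i, 21.6% for Serpina3n and 16.9% for Serpina3c. Serpinb5, Serpinf1, Serping1 and Serpinh1 shared no such word with any other gene. Levels of the Serpina1 copies, and of Serpina3h and its neighbours, are therefore uncertain as single genes.

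Libraries held 13723065 to 48353114 counts. Fbxw7 itself lay at 15.1 to 47.3 CPM in tumours, with a median of 30.8, and at 14.3 to 83.6 CPM in glands, with a median of 18.1, where CPM stands for a gene's counts scaled to the library's TMM-adjusted size. Which exons Cre removes is not in the labels, so this level does not check the genotypes. Adipocyte marker sums ran from 2.84 to 315 CPM in tumours and from 2009 to 10949 CPM in glands, with 6 of 6 markers lower in tumours, and 5 of 6 luminal epithelial markers were higher. Skeletal muscle markers reached 83894 CPM in gland 4, and salivary markers reached 1252784 CPM in tumour 1 and 197880 CPM in tumour 6, against at most 491 CPM in the other 8 libraries (the TMM factor of tumour 1 was 0.422, which raises its CPM). In bulk tissue, fewer cells of a type and less RNA per cell cannot be told apart.

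Few serpin genes passed the test between tumours and glands. Serpinb5 was higher and Serpina3c was lower in tumours, 2 of 29 tested members or 6.90%, where 15.1% of all 20101 tested genes passed, 6.89% in the higher and 8.19% in the lower direction (edgeR quasi-likelihood test, two-sided, Benjamini-Hochberg adjusted p below 0.05). An unadjusted p below 0.05 was found for 6 of 29 members, against 33.4% of all tested genes. Tumours and glands did not overlap in 2 members, Serpina3c and Serpinf1, or 6.90%, against 14.0% of all tested genes. The median log2 difference, tumour over gland, was -0.32 for the 29 members and 0.17 for all tested genes, and by clade it was -1.26 in clade A and 1.18 in clade B. Without tumour 5 the clade B median was -0.74 over 9 tested genes, and that of clade A was -2.84. The labels do not say that each library came from its own animal, so the p-values speak only of the spread among libraries.

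**Figure D2:**
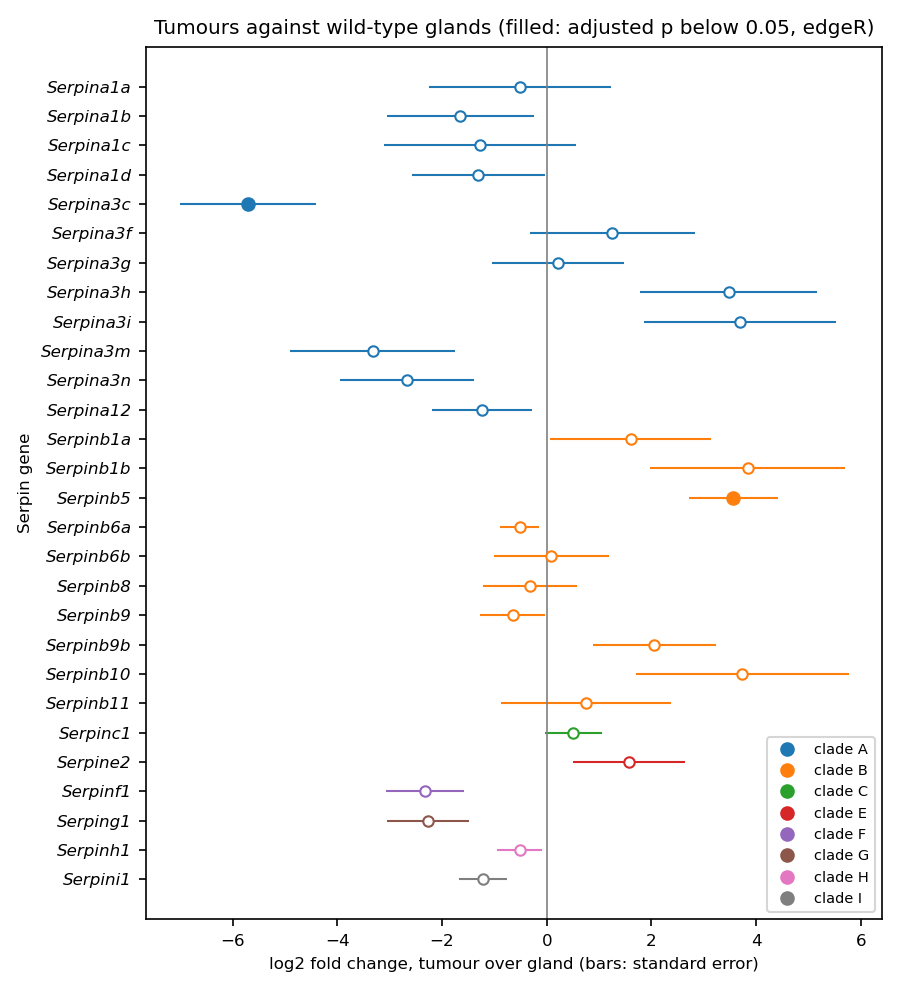
Log2 fold change of 28 tested serpin genes, tumour over gland, with bars of 1 standard error, with filled points for adjusted p below 0.05. The 2 filled points are Serpinb5 at 3.56 and Serpina3c at -5.71, and the other members spread on both sides of 0.

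Serpinb5 encodes maspin, a clade B protein made by mammary epithelial cells that does not inhibit proteases in the usual way. It lay at 4.25, 83.3, 177, 75.2, 19.0 and 36.0 CPM in tumours 1 to 6, against 6.33, 4.89, 5.51 and 5.53 CPM in glands 1 to 4. Tumours 2 to 6 were all above every gland, whereas tumour 1 was below every gland. The mean was 65.7 ± 62.6 CPM in tumours (SD, n = 6) and 5.57 ± 0.594 CPM in glands (SD, n = 4), and the log2 difference was 3.56 ± 0.85 (SE; edgeR adjusted p = 0.0215). The call was lost when any single gland was left out, with adjusted p from 0.0515 to 0.0666 and log2 differences from 3.50 to 3.63. Luminal epithelial marker sums were 1021 to 3698 CPM in tumours and 365 to 641 CPM in glands. Basal epithelial marker sums were 152, 924, 49.4, 683, 3222 and 541 CPM in tumours 1 to 6 and 72.7 to 126 CPM in glands. The basal sum was thus lowest in tumour 3, where Serpinb5 was highest. The part of either cell type in the Serpinb5 difference was not tested.

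The intracellular clade B inhibitors Serpinb6a, Serpinb9 and Serpinb8 overlapped between the groups, as did Serpinb5. Serpinb6a, an intracellular inhibitor of cathepsin G among others, had the highest tumour median of all members per length of transcript, 90.2 CPM per kilobase, against 122 CPM per kilobase in glands. It lay at 67.7 to 230 CPM in tumours with a median of 139.9 CPM, against 163 to 283 CPM in glands, and the log2 difference of -0.52 ± 0.38 (SE) did not pass (edgeR adjusted p = 0.345). Serpinb9, an inhibitor of granzyme B that shields cells from their own or a killer cell's granules, had 6.08 to 49.6 CPM in tumours and 11.6 to 44.2 CPM in glands. Serpinb8, whose human counterpart inhibits furin, had 0.668 to 23.0 CPM in tumours and 2.99 to 11.3 CPM in glands. None of the 3 passed the edgeR test, none had an unadjusted p below 0.05, and neither DESeq2 nor limma-voom called any of them.

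Serpinb2, an inhibitor of urokinase, did not pass the filter on low counts, with 0, 0, 0, 200, 293 and 16 counts in tumours 1 to 6 and 2, 12, 1 and 0 counts in glands 1 to 4. Tumours 4 and 5 held most of its counts. Serpinb3a, a copy of the squamous cell carcinoma antigen genes, had 3 counts in all. Serpinb13, a keratinocyte serpin, had 33 counts over 10 libraries, and Serpinb11 reached 2.34 CPM in tumour 4 and 0.699 CPM in gland 4. Squamous marker sums were 11.1 to 168 CPM in tumours and 3.04 to 6.22 CPM in glands, with 3 of 6 tested markers higher.

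Serpine2, of clade E, encodes protease nexin-1, which inhibits thrombin and urokinase. It lay at 20.7, 22.7, 283, 223, 43.9 and 41.7 CPM in tumours 1 to 6, against 14.5, 7.87, 4.73 and 116 CPM in glands 1 to 4. Tumours 3 and 4 were the highest libraries and gland 4 came next, so the groups overlapped. The log2 difference was 1.57 ± 1.07 (SE; edgeR adjusted p = 0.317). It was called in 1 of 19 alternatives, without tumours 1 and 6 and gland 4 (3.86, adjusted p = 0.0258). Single libraries moved it without a call, to 0.99 without tumour 3 and 3.50 without gland 4 (adjusted p = 0.0589). Serpine3 had 3 counts in all.

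**Figure D3:**
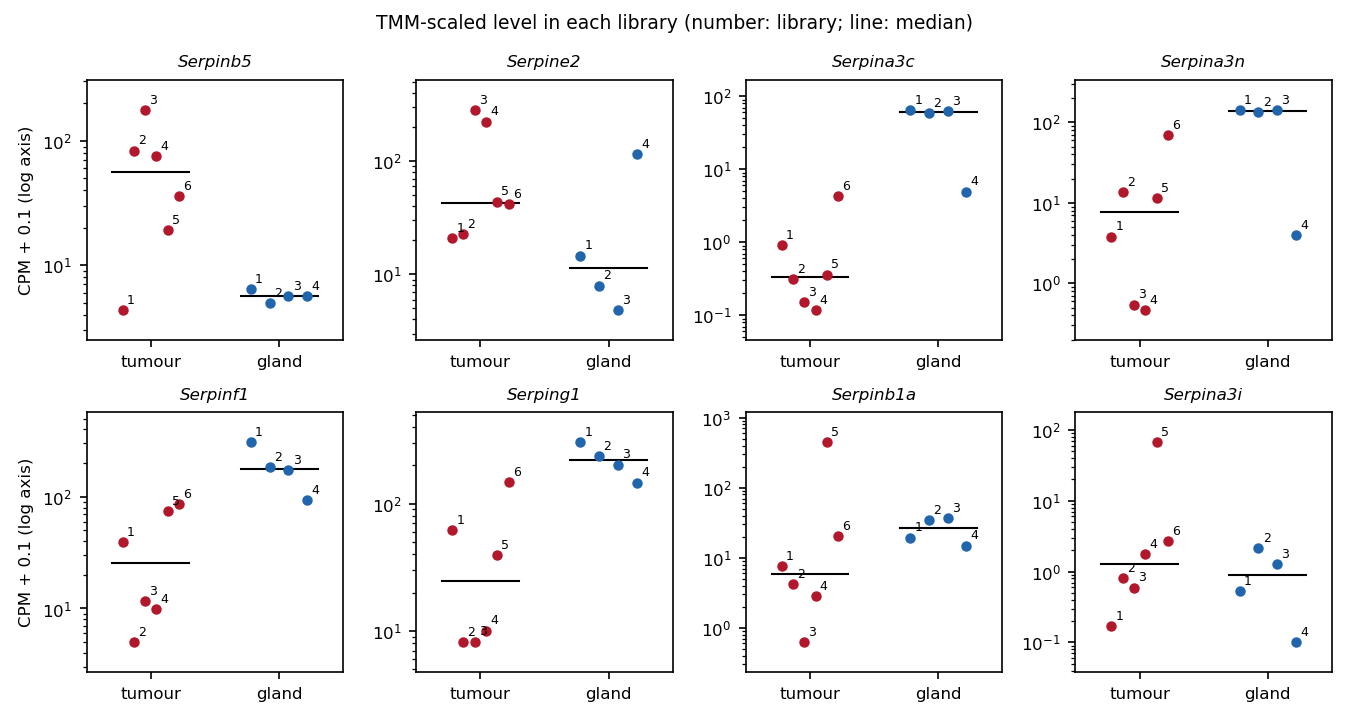
TMM-scaled CPM of 8 serpin genes in each library, tumours on the left and wild-type glands on the right, on log axes with a small constant added. Numbers name the library and lines mark the group median. Serpinb5 shows tumours 2 to 6 above the glands, Serpina3c, Serpinf1 and Serping1 show glands above most tumours, and Serpinb1a and Serpina3i peak in tumour 5.

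The Serpina3 genes are the mouse copies of alpha-1-antichymotrypsin, and they did not move together. Serpina3c lay at 0.822, 0.212, 0.0495, 0.0173, 0.260 and 4.15 CPM in tumours 1 to 6, against 64.7, 58.1, 63.1 and 4.83 CPM in glands 1 to 4. No tumour reached a gland, though tumour 6 and gland 4 were close. The mean was 0.919 ± 1.61 CPM in tumours (SD, n = 6) and 47.7 ± 28.7 CPM in glands (SD, n = 4), and the log2 difference was -5.71 ± 1.30 (SE; edgeR adjusted p = 0.0179). Over 19 other choices of scaling, test, filter, covariate or libraries it stayed past the threshold, at log2 differences from -8.89 to -4.72.

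Serpina3n, an acute-phase member that inhibits granzyme B and elastase, lay at 3.70, 13.6, 0.445, 0.364, 11.5 and 69.6 CPM in tumours 1 to 6, against 142, 135, 142 and 3.88 CPM in glands 1 to 4. Glands 1 to 3 were above every tumour, whereas gland 4 lay among the tumours. The log2 difference of -2.68 ± 1.28 (SE) did not pass (edgeR adjusted p = 0.165), and it passed without tumour 6 at -4.19 (adjusted p = 0.0428). Serpina3m had 0, 0.0151, 0, 0, 0.0558 and 1.45 CPM in tumours 1 to 6 and 3.88, 2.75, 3.62 and 0 CPM in glands 1 to 4. Serpina3k, a kallikrein-binding protein, was untested, with 1 count over the tumours and 34, 85, 21 and 0 counts in glands 1 to 4, and it was tested and called lower in tumours when gland 4 was left out.

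These 4 Serpina3 genes thus shared a pattern of glands 1 to 3 high and gland 4 low. Marker sums moved in part alongside: adipocyte markers were at 10949, 7110 and 6822 CPM in glands 1 to 3 and 2009 CPM in gland 4, and Alb, a hepatocyte product, was at 13.2, 31.5 and 44.0 CPM in glands 1 to 3, 0.0636 CPM in gland 4 and at most 0.206 CPM in tumours. The summed level of all 5 hepatocyte markers was 0.0495 to 18.1 CPM in tumours and 0.890 to 44.5 CPM in glands, and the 1 marker that was tested was not called. In glands 1 to 3 most of this sum was Alb. Among the other hepatocyte markers Fgb was highest in gland 4, at 0.228, 0.172, 0.390 and 0.827 CPM in glands 1 to 4. Apoa1, Ttr and Tat were at most 0.111 CPM in any gland. Gland 4 also differed by age and muscle content, and its identifier has another form than those of glands 1 to 3. The part of these in the Serpina3 levels was not tested.

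The 150 bases before the RefSeq start of 5 of these genes and of Serpinb5 are shown because Serpina3c and Serpina3n shared a pattern that Serpina3f, Serpina3g and Serpina3i did not. Sequences are from RefSeq, build GRCm38.p6, 5′ to 3′ on the strand of the gene, at chr1:106861025-106861174 (+ strand) for Serpinb5, chr12:104153930-104154079 (- strand) for Serpina3c, chr12:104406496-104406645 (+ strand) for Serpina3n, chr12:104214394-104214543 (+ strand) for Serpina3f, chr12:104235997-104236146 (+ strand) for Serpina3g and chr12:104262895-104263044 (+ strand) for Serpina3i. Capitals mark matches, on either strand, to the TATA box letters TATAAA, to CCAAT, to the AP-1 letters TGANTCA and to the STAT letters TTCNNNGAA.
Serpinb5: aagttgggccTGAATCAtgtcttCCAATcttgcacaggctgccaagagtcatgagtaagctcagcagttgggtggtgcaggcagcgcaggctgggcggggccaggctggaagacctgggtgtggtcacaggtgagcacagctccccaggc
Serpina3c: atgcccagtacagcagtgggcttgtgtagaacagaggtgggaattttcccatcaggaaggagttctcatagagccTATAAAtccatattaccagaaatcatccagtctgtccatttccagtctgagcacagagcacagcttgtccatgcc
Serpina3n: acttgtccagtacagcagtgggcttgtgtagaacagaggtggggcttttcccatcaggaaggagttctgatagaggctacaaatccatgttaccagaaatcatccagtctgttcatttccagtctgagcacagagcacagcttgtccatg
Serpina3f: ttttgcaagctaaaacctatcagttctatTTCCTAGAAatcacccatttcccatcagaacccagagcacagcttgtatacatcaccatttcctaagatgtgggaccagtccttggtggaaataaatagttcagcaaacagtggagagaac
Serpina3g: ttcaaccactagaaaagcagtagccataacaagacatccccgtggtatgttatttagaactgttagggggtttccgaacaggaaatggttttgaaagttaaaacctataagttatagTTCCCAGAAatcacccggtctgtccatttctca
Serpina3i: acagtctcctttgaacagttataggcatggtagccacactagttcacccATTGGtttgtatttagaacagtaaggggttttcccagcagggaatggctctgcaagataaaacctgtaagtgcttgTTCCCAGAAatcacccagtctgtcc

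The Serpina3c and Serpina3n windows matched at 139 of 148 aligned bases, or 93.9%. Serpina3g and Serpina3i matched at 105 of 140 aligned bases, or 75.0%. Serpina3f matched Serpina3g at 86.8% and Serpina3i at 80.4%, but over only 53 and 51 aligned bases. Serpina3c and Serpina3n each matched Serpina3f, Serpina3g and Serpina3i at 64.7% to 70.0%, over 77 to 119 aligned bases. Matches to TTCNNNGAA were found in the windows of Serpina3f, Serpina3g and Serpina3i, and not in those of Serpina3c and Serpina3n. In all, 6 of 46 serpin windows held it, among them those of Serpina11, Serpina1f and Serpinb6a. Windows of Serpina3k and Serpina3m, which shared the pattern of Serpina3c and Serpina3n, are not shown here. Of all 22803 windows of this length 4.43% held TTCNNNGAA, 8.64% TATAAA, 25.7% CCAAT and 4.41% TGANTCA. In Serpinb5 the TGANTCA match lay 140 to 134 bases before the start. A match describes letters only, and no binding was measured.

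Tumour 5, from the oldest mouse, at 53 weeks, stood apart in its serpin RNA. It was the highest of the 10 libraries for 13 of 29 tested members, 44.8%, against 6.76% of all tested genes, and for 7 of the 30 members not tested. When tumour 5 was left out, the filter on low counts kept 26 members, and Serpina1c was not among them. Its counts in tumour 5 thus brought it into the 29. The Serpina1 and Serpina3 copies share sequence, so they do not count as separate observations. The 13 were Serpina1a, Serpina1c, Serpina1d, Serpina3f, Serpina3g, Serpina3h, Serpina3i, Serpinb1a, Serpinb1b, Serpinb6b, Serpinb8, Serpinb9 and Serpinb10, of which Serpina3h, Serpinb1b, Serpinb6b and Serpinb10 are named because of these values. Serpinb1a, an inhibitor of neutrophil elastase, cathepsin G and proteinase 3, lay at 7.54, 4.08, 0.519, 2.72, 445 and 20.3 CPM in tumours 1 to 6, against 19.3, 34.4, 36.9 and 14.8 CPM in glands 1 to 4. Tumour 5 had 22 times the level of the next tumour, and 4 tumours lay below every gland.

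Serpina3g, a cytoplasmic cathepsin inhibitor known from blood cells, had 69.5 CPM in tumour 5, 1.43 to 4.74 CPM in the other tumours and 1.66, 23.3, 21.4 and 1.27 CPM in glands 1 to 4. Serpina3i had 66.7 CPM in tumour 5, 0.0685 to 2.59 CPM in the other tumours and 0 to 2.04 CPM in glands. Serpina3h, the transcribed pseudogene, had 66.1 CPM in tumour 5 and at most 2.48 CPM elsewhere, and it shared 25.8% of its words with Serpina3i. Serpinb10 had 24.4 CPM in tumour 5 and at most 0.520 CPM elsewhere.

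None of the 13 passed the test between tumours and glands in edgeR, where 0 had an unadjusted p below 0.05. DESeq2 gave an adjusted p for 8 of the 13 and called 0 of these, and gave none for Serpina3h, Serpina3i, Serpinb1a, Serpinb1b and Serpinb10. Of the 13, limma-voom called Serpina1c lower in tumours. Without tumour 5 the log2 difference was -1.90 for Serpinb1a, against 1.60 with it, and -2.14 for Serpina3g, against 0.22 with it. The difference of Serpina3f was -1.78 without tumour 5 and 1.25 with it. Tumour 5 also had the highest basal epithelial marker sum, 3222 CPM against 49.4 to 924 CPM in the other tumours and 72.7 to 126 CPM in glands, and the highest T and NK cell sum of the tumours, 38.3 CPM against 1.23 to 6.79 CPM in the other tumours and 9.42, 258, 199 and 1.27 CPM in glands 1 to 4. Its neutrophil marker sum was 2.31 CPM, within the 0.754 to 13.0 CPM of the other tumours. The part of these cells in the serpin levels was not tested.

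**Figure D4:**
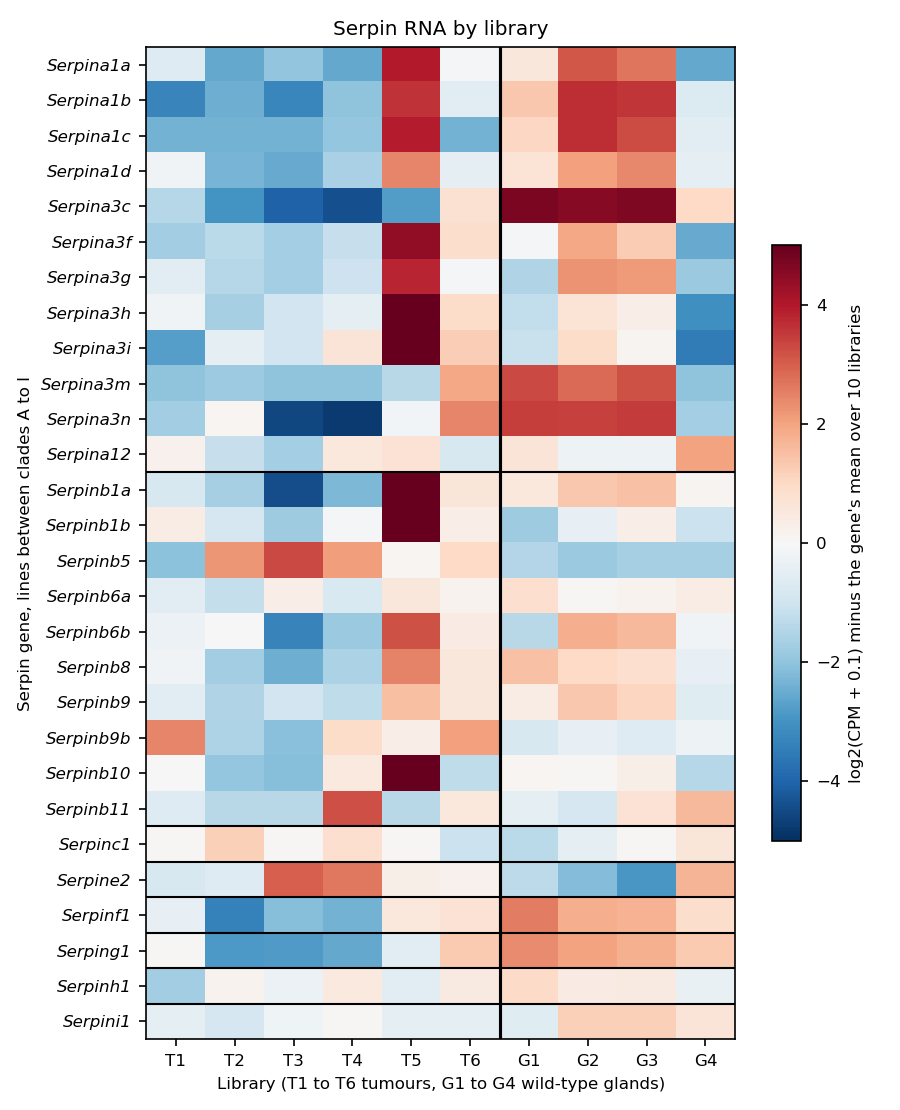
Level of 28 tested serpin genes (rows, ordered by clade) in tumours T1 to T6 and wild-type glands G1 to G4 (columns), as log2 CPM with a small constant added, less the gene's mean over the 10 libraries. Column T5 holds the highest value in 13 of the 28 rows, and columns G1 to G3 are high in rows of Serpina3c and Serpina3n.

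The Serpina1 genes encode copies of alpha-1-antitrypsin, the inhibitor of neutrophil elastase made mainly by liver. Serpina1b lay at 0.411, 0.817, 0.420, 1.13, 60.4 and 3.35 CPM in tumours 1 to 6, against 12.7, 64.4, 59.8 and 3.05 CPM in glands 1 to 4. Tumour 5 and glands 2 and 3 were high together, and 4 tumours lay below every gland. The log2 difference was -1.65 ± 1.40 (SE; edgeR adjusted p = 0.418), and without tumour 5 it was -4.82 and passed (adjusted p = 0.0154). Serpina1a, Serpina1c and Serpina1d reached 9.14, 7.72 and 3.0 CPM in tumour 5 and at most 5.0, 6.51 and 2.90 CPM in glands. Serpina1e was untested, with 60 counts in tumour 5 and 126 in gland 2. Hepatocyte transcripts went different ways in tumour 5. Alb was at 0.0744 CPM, Apoa1 at 0.0372 CPM, Ttr at 0.0744 CPM and Tat at 0 CPM. Fgb, a fibrinogen chain, was at 1.56 CPM, against 0.172 to 0.827 CPM in glands and 16.9 CPM in tumour 2, its highest library. F2, prothrombin, of the coagulation list and not a listed hepatocyte marker, was at 6.42 CPM in tumour 5 and at most 0.137 CPM in every other library. B cell marker sums were 31.5 CPM in tumour 5, 1.58 to 9.70 CPM in the other tumours and 6.73, 180, 189 and 0.445 CPM in glands 1 to 4, high in the same 3 libraries as Serpina1b, and T and NK cell sums were highest in these 3 as well. The part of these cells in the Serpina1 levels was not tested.

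A pair of secreted serpins of stroma and plasma was low in most tumours. Serpinf1, or PEDF, an anti-angiogenic serpin that inhibits no protease, lay at 39.1, 4.87, 11.6, 9.81, 74.3 and 86.0 CPM in tumours 1 to 6, against 307, 183, 172 and 93.7 CPM in glands 1 to 4. Every tumour lay below every gland. The log2 difference was -2.33 ± 0.74 (SE; edgeR adjusted p = 0.0548), just short of the threshold, and it passed without tumour 6 (-2.81, adjusted p = 0.0327). Both DESeq2 (adjusted p = 0.0112) and limma-voom (adjusted p = 0.0264) called it lower in tumours, and over 19 alternatives 5 called it.

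Serping1, or C1 inhibitor, which restrains the first complement proteases and plasma kallikrein, lay at 62.1, 8.05, 8.16, 9.98, 39.3 and 147 CPM in tumours 1 to 6, against 303, 236, 202 and 146 CPM in glands 1 to 4. Tumour 6 just overlapped gland 4, and the other 5 tumours were below every gland. The log2 difference was -2.27 ± 0.79 (SE; edgeR adjusted p = 0.0717), and without tumour 6 it was -3.20 and passed (adjusted p = 0.0138). DESeq2 (adjusted p = 0.0192) and limma-voom (adjusted p = 0.0199) called it lower too, and 5 of 19 alternatives called it. Fibroblast marker sums were 173 to 3848 CPM in tumours, highest in tumour 6, and 2537 to 4224 CPM in glands. Adipocyte sums were also highest in tumour 6 among tumours. The part of these cells in either gene was not tested.

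Serpinh1, the HSP47 chaperone of procollagen, was among the most abundant members per length in both groups, at a median of 79.3 CPM per kilobase in tumours and 110 CPM per kilobase in glands. It lay at 54.3, 202, 147, 251, 122 and 246 CPM in tumours 1 to 6, against 351, 238, 246 and 139 CPM in glands 1 to 4. The groups overlapped, and the log2 difference was -0.52 ± 0.43 (SE; edgeR adjusted p = 0.406).

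The remaining members named here were low. Serpini1, neuroserpin, an inhibitor of tissue plasminogen activator in neurons, had 0.620 to 1.23 CPM in tumours and 0.742 to 2.84 CPM in glands, with a log2 difference of -1.22 ± 0.46 (SE; edgeR adjusted p = 0.0910), and among the alternatives DESeq2 alone called it (adjusted p = 0.0270). Serpinc1, antithrombin, had 1.39 to 7.02 CPM in tumours and 1.11 to 4.64 CPM in glands. Serpina12, the adipokine vaspin, reached 0.428 CPM in tumours and 1.21 CPM in gland 4. Serpind1, heparin cofactor II, had 38 counts in all, Serpinf2, the main plasmin inhibitor of plasma, 23, and Serpina5, protein C inhibitor, 4. Over the 30 untested members summed counts ran from 3 to 690 with a median of 28, and 12 of them were at 0 in all 4 glands.

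The 59 genes took 0.0901% ± 0.0643 of all counts in tumours (SD, n = 6) and 0.135% ± 0.0602 in glands (SD, n = 4). The lowest share was 0.0140% in tumour 1 (95% exact binomial interval 0.0136% to 0.0144%, counting error only) and the highest was 0.208% in tumour 5 (0.206% to 0.209%). With salivary markers and mitochondrial genes taken out of the total, the share was 0.0354% in tumour 1 and 0.229% in tumour 5, against 0.0713% in gland 4, where it was 0.0446% of all counts. The mean was then 0.108% ± 0.0669 in tumours (SD, n = 6) and 0.161% ± 0.0599 in glands (SD, n = 4). Of the serpin counts, not scaled to length, Serpinh1 took the largest part in tumours 2, 4 and 6 and in glands 1 to 3, Serpinb6a in tumour 1 and gland 4, Serpine2 in tumour 3 and Serpinb1a in tumour 5. Serpinb1a made up 30.2% of the serpin counts of tumour 5 (95% exact binomial interval 29.8% to 30.5%).

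**Figure D5:**
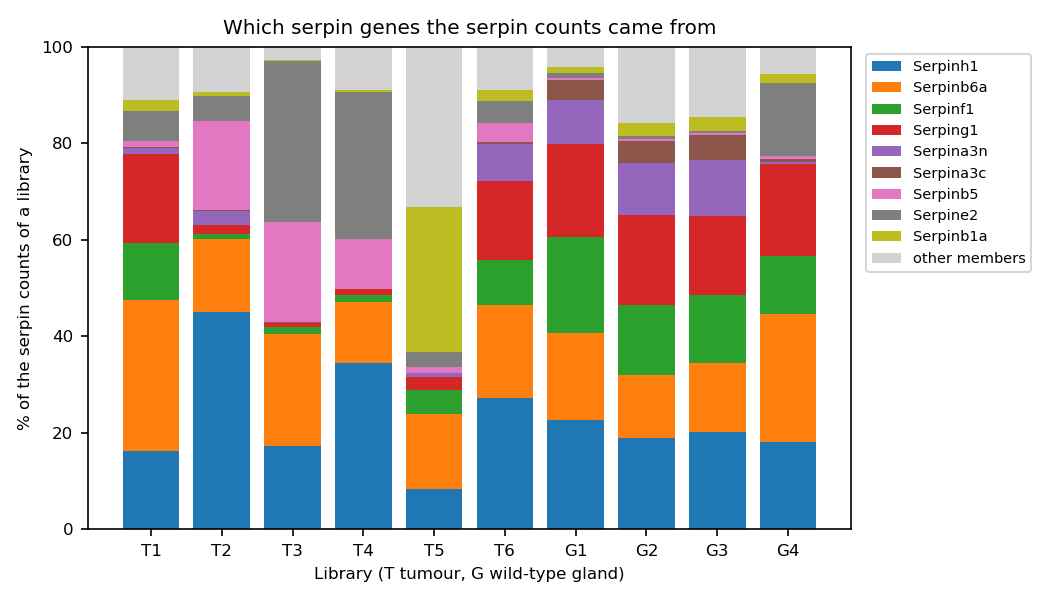
Stacked percent of the serpin counts of each library taken by single genes, tumours T1 to T6 left of wild-type glands G1 to G4. Serpine2 leads in tumour 3 and Serpinb1a, at 30.2%, in tumour 5, and Serpinh1 leads in glands 1 to 3.

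Genes that serpins act on or beside were taken from 6 lists. In the plasminogen activation list, with a median log2 difference of -1.14, 2 of 9 tested genes were lower, where 8.19% of all tested genes were. These were Thbd, thrombomodulin (-3.93 ± 0.76 SE, edgeR adjusted p = 0.0101), and Vtn, vitronectin, a plasma and matrix protein (-3.90 ± 1.03, adjusted p = 0.0295). The call of Vtn was lost without tumour 2 and without any single gland (adjusted p up to 0.0633). DESeq2 called 4 genes of this list lower and limma-voom 3. Of all tested genes DESeq2 called 26.1% and limma-voom 15.3%, both directions together. Plau, urokinase, lay at 14.4 to 76.8 CPM in tumours and averaged 90.6 ± 24.4 CPM in glands (SD, n = 4), a log2 difference of -1.14 ± 0.51 (SE; adjusted p = 0.142). The log2 difference was -1.79 ± 0.66 for Plat, tissue plasminogen activator (adjusted p = 0.0885), 0.84 ± 0.77 for Plaur, the urokinase receptor (adjusted p = 0.454), and -1.95 ± 0.71 for Lrp1, which clears serpin complexes (adjusted p = 0.0851).

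Among protease inhibitors of other families 7 of 12 tested were higher and 1 was lower in tumours, with a median log2 difference of 2.56. The 7 made up 58.3%, where 6.89% of all tested genes were higher and 8.19% lower. Luminal epithelial markers moved with them, 5 of 6 higher at a median of 2.21, and their part in the inhibitor levels was not tested. The 12 include the cystatins Cst3 and Cst6, which inhibit cysteine proteases, and without them, a split made after seeing the data, 7 of 10 were higher and 1 lower, with a median of 2.91. DESeq2 called 7 of the 12 higher and 2 lower, and limma-voom 6 higher and 2 lower, where they called 26.1% and 15.3% of all tested genes. Spint1, a Kunitz inhibitor of matriptase, lay at 41.9 to 53.8 CPM in tumours and averaged 7.92 ± 1.68 CPM in glands (SD, n = 4), a log2 difference of 2.56 ± 0.24 (SE; edgeR adjusted p = 0.00164). Wfdc18 differed by 6.62 ± 0.70 and Wfdc2 by 3.25 ± 0.43 on the log2 scale, both members of the WAP family (adjusted p = 0.00164 and 0.00274). Itih5, of the inter-alpha-trypsin inhibitor family, fell by 3.30 ± 0.96 on the log2 scale (adjusted p = 0.0411), a call that held in 10 of 19 alternatives and in none that left out a single gland.

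Of 13 tested epithelial serine proteases 4 were higher, or 30.8%, where 6.89% of all tested genes were, and the median log2 difference was 2.08. Luminal epithelial markers moved with them, 5 of 6 higher at a median of 2.21, and their part in the protease levels was not tested. DESeq2 called 7 of the 13 higher and 2 lower, and limma-voom 3 higher and 2 lower. Here and for the lists that follow, the shares of all tested genes called were 26.1% with DESeq2 and 15.3% with limma-voom, both directions together. Prss8, prostasin, lay at 16.8 to 56.5 CPM in tumours and averaged 5.18 ± 1.63 CPM in glands (SD, n = 4), a log2 difference of 3.01 ± 0.41 (SE; edgeR adjusted p = 0.00311). St14, matriptase, differed by 2.62 ± 0.39 (adjusted p = 0.00399), and Klk10 by 8.76 ± 1.25 (adjusted p = 0.00374). Of 9 coagulation and complement genes 1 was higher, the protease receptor F2rl1 (3.36 ± 0.88, adjusted p = 0.0296). DESeq2 called 1 of the 9 higher and 2 lower, and limma-voom 0 higher and 2 lower. The F2rl1 call was lost with limma-voom, without tumour 4 and without any single gland (adjusted p up to 0.0933). Of 8 collagen chaperones and modifiers 1 was higher, Ppib (1.68 ± 0.41, adjusted p = 0.0236), and its call was lost without any single gland (adjusted p up to 0.0650). DESeq2 called 2 of the 8 higher and 1 lower, and limma-voom 1 higher. Of 12 leukocyte proteases edgeR called 0, with 4 at an unadjusted p below 0.05, DESeq2 called 2 lower and limma-voom 4 lower.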

How the data were processed

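PolyA RNA of whole tissue was sequenced after TRIzol extraction and NEBNext Ultra library preparation, per the labels' protocols. The authors deposited 1 table of whole-number read counts per gene symbol for 10 libraries. Salmon 1.2.0, DESeq and mm9 are named, without their roles, in the submitters' processing notes. How transcripts were summed to genes, how reads were divided among near-identical genes and whether strand was used are not given in the sources used here. Sequencing runs were not known here.

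Groups were 6 tumours and 4 wild-type glands, from the labels. Counts were kept by filterByExpr (20101 of 38279 symbols), scaled by TMM and tested with the edgeR 4.0.16 quasi-likelihood F test in R 4.3.3, tumour over gland, two-sided, with Benjamini-Hochberg adjustment over all genes tested and calls below 0.05. Each standard error is the absolute log2 difference over the square root of F. Libraries of a group varied with a biological coefficient of variation of 0.707. In simulated data of this design (19664 genes tested) edgeR found none of 67 genes made 2-fold different, none of 67 made 4-fold different and 9 of the 66 made 8-fold different, without a false call. DESeq2 1.42.0 found 6, 24 and 49 in these classes and made 48 false calls. Only these genes were changed there, whereas 15.1% of all tested genes were called in the data. Benjamini-Hochberg adjustment asks for a smaller unadjusted p when few genes differ, so the simulation can understate what the test finds in the data. It gives no recovery rate for this comparison, and a member that misses the threshold may still differ.

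No pair of 45 was a copied library, since even the closest, glands 2 and 3, had a chi-square of 37.8 per degree of freedom. Other settings tried were scaling by RLE or upper quartiles, DESeq2, limma-voom (limma 3.58.1), no filter, a filter of CPM above 1 in at least 4 libraries, age as a covariate, leaving out each library, and leaving out tumours 1 and 6 with or without gland 4.

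The members and lists were chosen with earlier results of these data known. Named were every called member, 34 well-known serpins whatever their test (33 are in the table; Serpini2 is not), Plau, Plat, Plaur and Lrp1, and per list at most 3 called genes in each direction with the smallest adjusted p. The values of 1 tested member are not reported here.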

Additional observations from a re-analysis of the deposited data

Results flagged for a closer look

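In 48 groups examined (24 named genes, tumours and glands apart) 6 held a library whose gap to its nearest neighbour took up an unusually large part of the group's range on the log2 scale. Chance flags about 1 group in 20 when groups are independent. The groups here were not, since related genes were read in the same libraries, and some flags include values at or near 0 CPM. The 6 are therefore not set against that rate. Tumour 5 stood above the other tumours for Serpina1c, at 7.72 CPM against 0 to 0.0347 CPM, and for Serpina3g, at 69.5 CPM against 1.43 to 4.74 CPM. Tumour 6 stood above the other tumours for Serpina3m, at 1.45 CPM against 0 to 0.0558 CPM. Gland 4 stood below the other glands for Serpina3c, at 4.83 CPM against 58.1 to 64.7 CPM, for Serpina3n, at 3.88 CPM against 134.7 to 142 CPM, and for Serpina3m, at 0 CPM against 2.75 to 3.88 CPM. Glands 1 to 3 came from mice of 20 weeks and gland 4 from a mouse of 40 weeks.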

How the results depend on the processing

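Over 439 recomputed values of named serpins with an adjusted p, 399 kept their direction and side of the threshold, and DESeq2 gave no adjusted p for 3 more. The genes called over all tested were 1384 higher and 1646 lower, against 2657 and 2595 with DESeq2, 908 and 991 with age as a covariate, 430 to 1737 and 623 to 1849 when single libraries were left out, and 2826 lower without tumours 1 and 6 and gland 4. Serpin calls were 1 higher and 1 lower, against 2 and 4 with DESeq2, 0 and 4 with limma-voom, 2 lower with no filter, 2 and 3 without tumours 1 and 6, 3 and 6 without these and gland 4, and 0 to 2 and 1 to 4 when single libraries were left out. Of genes in the 6 lists 13 were higher and 3 lower, against 13 lower with DESeq2, 13 with limma-voom, 12 without tumours 1 and 6, 15 without these and gland 4, and 1 to 12 when single libraries were left out. Serpinb5 missed the threshold with limma-voom (2.92, adjusted p = 0.0781) and without any single gland.

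Of the 29 tested members 8 changed sign under some alternative, in 24 recomputed values of which 0 were called. With limma-voom the log2 difference was -0.50 for Serpina3f, -0.63 for Serpina3g, -1.50 for Serpinb1a and -1.38 for Serpinb11. With age as a covariate it was -1.96, -2.25, -2.08 and -0.63 for the same genes. Leaving out single libraries gave -4.04 to 0.16 for Serpina1a, -1.78 to 1.99 for Serpina3f, -2.14 to 0.77 for Serpina3g and -1.90 to 1.87 for Serpinb1a. The cause was not tested. Upper-quartile scaling moved the median log2 difference of all tested genes by 0.16, and the serpin median stayed below it. The serpin median lay above that of all genes with no filter and without gland 2. No paired analysis was possible because the tumours came from Cre-positive mice and the glands from Cre-negative mice. The filter left out 30 of the 59 members, with 3 to 690 summed counts, against 101 to 84113 for those tested, so the ranges overlapped.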

Other observations

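Some members not tested held most of their counts in a single tumour. The 4 named here were chosen after their values were seen. Serpina11 had 0, 5, 0, 1, 542 and 0 counts in tumours 1 to 6 and 0, 8, 3 and 0 counts in glands 1 to 4. It shares 37.2% of its 31-base words with the gene model Gm28577. Serpina10, which encodes an inhibitor of clotting factor X that acts with protein Z, had 4, 0, 1, 1, 514 and 0 counts in tumours 1 to 6 and 1, 120, 49 and 0 counts in glands 1 to 4. Tumour 5 held most counts of both, and glands 2 and 3 most of the other counts of Serpina10. Tumour 4 held all 52 counts of Serpinb3b and 67 of the 69 counts of Serpinb6d, which share sequence with other copies of their families. Both were at 0 in all 4 glands.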
